A study of Mus musculus with 15 samples.

Results

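The thoracic aortas of 15 mice were ordered by their level of Ucp1, the uncoupling protein of brown fat, and the 5 libraries with the most Ucp1 were set beside the 5 with the least. The members were selected on measured values: each Ucp1 count was divided by its column total to give CPM, a count scaled to a common library size, and ranks 1 to 5 and 11 to 15 of 15 were taken. All mice were wild-type adult C57BL/6 males of 10 to 12 weeks on regular chow, dosed by gavage in 100 µL and killed 6 h later at zeitgeber time 11, which is 11 h after lights on. They received celecoxib at 30 mg/kg (5 mice), rofecoxib at 10 mg/kg (5 mice), both inhibitors of cyclooxygenase-2, or PEG-400 vehicle alone (5 mice). The tissue was labelled as thoracic aorta, poly(A) RNA was sequenced from each mouse, and the labels do not say how much surrounding fat was kept. The high libraries were 4 vehicle and 1 celecoxib, the low libraries were 3 celecoxib and 2 rofecoxib, and 1 vehicle, 1 celecoxib and 3 rofecoxib libraries lay between. Ucp1 level and treatment therefore cannot be told apart in the direct comparison of high with low libraries.

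Brown fat cells burn fatty acids to make heat. Noradrenaline from sympathetic nerves acts through beta-adrenergic receptors and cyclic AMP to release fatty acids from lipid droplets, which are oxidised in densely packed mitochondria, and Ucp1 lets protons back across the inner mitochondrial membrane without making ATP. The fat that surrounds the mouse thoracic aorta is largely of this brown type. In RNA from whole tissue, fewer cells of a type and less RNA per cell cannot be told apart.

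Ucp1 (ENSMUSG00000031710, mm9 chromosome 8, 85814045 to 85822557) stood at 980.1, 452, 402, 276 and 245 CPM in vehicle 5, vehicle 4, vehicle 3, vehicle 1 and celecoxib 4, the high libraries in descending order. In the low libraries it stood at 87.0, 72.3, 58.9, 37.7 and 6.65 CPM in rofecoxib 5, celecoxib 3, rofecoxib 2, celecoxib 5 and celecoxib 2. All values below are given in this same order. The means were 471 ± 297 CPM and 52.5 ± 31.4 CPM (SD, n = 5 each), a ratio of 8.97, and the highest library exceeded the lowest 147-fold. Both ends stood far out: without vehicle 5 and celecoxib 2 the ratio of means was 5.37. The upper boundary was narrow, with celecoxib 4 at 245 CPM just inside and rofecoxib 1 at 217 CPM just outside, and the lower was wider, with rofecoxib 5 at 87.0 CPM inside and rofecoxib 4 at 132 CPM outside. Ordering the libraries by the mean of Cidea, Elovl3, Cox8b, Dio2 and Cox7a1, 5 other brown fat genes, gave the same 5 highest and the same 5 lowest libraries. Cidea, Elovl3, Cox8b and Cox7a1 rose steeply with Ucp1 in these same libraries (below), so the match is largely built in. Prdm16, a brown fat gene left out of that mean, did not rise with Ucp1.

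**Figure D1:**
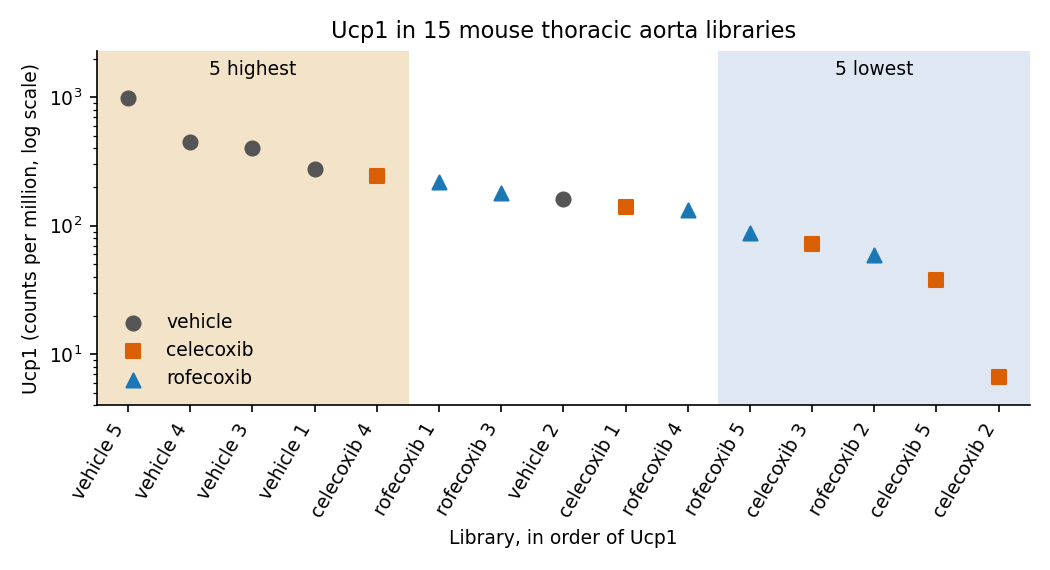
Ucp1 level (CPM, log scale) in each of the 15 libraries, ordered from highest to lowest; each point is 1 mouse, symbols give the treatment and shading marks the 5 highest and 5 lowest. Vehicle 5 at 980.1 CPM and celecoxib 2 at 6.65 CPM stand apart from their neighbours, and no vehicle library is among the 5 lowest.

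Depth was nearly the same in every library. Column totals ran from 30937046 to 30967115 counts, a spread of 0.0971% of their mean, so a step to a common total before deposit is possible, and 19254 to 19739 genes had a count in the high libraries against 19158 to 19661 in the low. The 10 most abundant genes took 8.21% to 9.01% of counts in the high libraries and 9.19% to 9.86% in the low ones, without overlap. Library construction ran over several days by the labels' protocol, with no day given per library, so its part in the order was not tested.

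The question was which other genes travel with Ucp1. It was answered in 2 ways: by the values of the high and low libraries, a description without a test, and by a slope fitted across all 15 libraries with treatment in the model, which is the tested result. The slope is the log2 change of a gene's level for each doubling of Ucp1, from edgeR's quasi-likelihood fit with Benjamini-Hochberg adjustment over the 15133 genes tested, and a gene is called where the adjusted p is under 0.05. All adjusted p-values below come from that fit unless another is named. The slope tests an association among libraries that were not assigned to Ucp1 levels. Of the genes tested, 170 were called higher with Ucp1 (1.12%) and 2 were called lower (0.0132%), and 1490 had an unadjusted p under 0.05. Slopes were positive for 53.4% of all genes tested. These shares are the background for every list count below. The called slopes were modest for most genes: the median of the 170 was 0.21, the largest 1.04, and the median of all tested genes 0.0036.

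The count of 172 called genes rested on several libraries. It fell to 82 without celecoxib 4, to 91 without vehicle 2 and to 93 without vehicle 5, and 60 genes were called in all 15 fits that left out 1 library. Without both end libraries, vehicle 5 and celecoxib 2, 67 genes were called, 65 of them among the 172. In the description, 124 of 13220 genes with a mean of at least 1 CPM were at least 2-fold higher in the high libraries with no overlap (0.938%), and 0 were 2-fold lower (0%). Without the fold requirement, 578 genes lay wholly above (4.37%) and 18 wholly below (0.136%). Of the 170 genes called higher, 161 had high and low libraries that did not overlap. The slope and the split use the same Ucp1 values of the same libraries, so this match is largely built in.

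Other genes of the thermogenic brown fat cell were among those called. Of 33 listed genes besides Ucp1, 29 were abundant enough to test, and 11 of them were called higher (1.12% over all genes) and 0 lower. The median slope was 0.24 (0.37 without celecoxib 2) against 0.0036 over all genes. This list, like the others, was chosen with earlier results of these data known. The called genes were Cox8b, Otop1, Slc27a2, Cpt1b, Cox7a1, Cidea, Elovl3, Slc36a2, Slc25a20, Pank1 and Letmd1, and 9 to 12 of the list were called whichever library was left out. For 19 members of the list every high library lay above every low one, against 4.37% of genes with a mean of at least 1 CPM.

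Cox8b (mm9 chromosome 7, 148084640 to 148086547), a cytochrome c oxidase subunit isoform of muscle and brown fat, stood at 113, 76.7, 55.8, 70.8 and 59.0 CPM in the high libraries and at 19.3, 24.2, 20.2, 12.7 and 4.26 CPM in the low ones. The groups were far apart, 75.1 ± 23.0 CPM against 16.1 ± 7.80 CPM (SD, n = 5 each), a ratio of 4.66. Its slope was 0.70 ± 0.05 (SE, adjusted p = 1.55e-05). In vehicle mice the lowest value, 39.7 CPM, was in vehicle 2, the vehicle library with least Ucp1, and the highest, 113 CPM, in vehicle 5. In celecoxib mice it ran from 4.26 CPM in celecoxib 2 to 59.0 CPM in celecoxib 4, again the libraries with least and most Ucp1. In rofecoxib mice the highest, 48.7 CPM, was in rofecoxib 1, which had the most Ucp1, but the lowest, 19.3 CPM, was in rofecoxib 5 and not in rofecoxib 2, which had the least Ucp1 and 20.2 CPM of Cox8b.

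Cox7a1, another oxidase subunit isoform of oxidative tissues, stood at 51.9, 27.9, 24.2, 32.2 and 29.5 CPM against 7.85, 9.92, 8.11, 4.81 and 1.26 CPM. It had a slope of 0.77 ± 0.07 (adjusted p = 7.44e-05). Otop1 (mm9 chromosome 5, 38667009 to 38695650), a proton channel, stood at 26.8, 15.8, 12.2, 12.5 and 11.4 CPM against 3.56, 2.71, 4.004, 1.94 and 0.581 CPM, with a slope of 0.82 ± 0.06 (adjusted p = 1.55e-05). For both genes the groups were apart and vehicle 5 was the highest library by a wide margin. Slc27a2 (mm9 chromosome 2, 126377941 to 126414181), a fatty acid transport protein and acyl-CoA synthetase, stood at 30.2, 17.6, 17.6, 18.4 and 17.2 CPM against 5.92, 4.94, 5.84, 3.49 and 0.614 CPM, with a slope of 0.82 ± 0.06 (adjusted p = 1.55e-05). Celecoxib 2, which had the least Ucp1, was the lowest library for all of these genes.

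Cidea, a lipid droplet protein that drives droplet fusion, stood at 278, 188, 122, 156 and 149.6 CPM against 55.4, 56.3, 59.0, 32.1 and 19.9 CPM, with a slope of 0.57 ± 0.05 (adjusted p = 9.08e-05). Elovl3, an elongase of very long fatty acids that is induced by cold in brown fat, had the largest slope of any called gene, 1.04 ± 0.15 (adjusted p = 0.00324). Its values were 19.4, 3.78, 5.14, 2.004 and 1.33 CPM in the high libraries and 1.49, 0.872, 0.581, 0.388 and 0.0323 CPM in the low ones. The Elovl3 groups overlapped, since celecoxib 4 lay below rofecoxib 5, and vehicle 5 was well above the next library, vehicle 3. Without both end libraries its slope was 0.70 with an adjusted p of 0.142.

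The promoters of Ucp1 and of the 3 genes with the smallest adjusted p in this list are shown to set these genes beside Ucp1. Each runs from 250 bases before to 50 after the transcription start (RefSeq, build GRCm38.p6, written 5′ to 3′ along the gene). Capitals mark AGGTCA, or TGACCT where it lies on the other strand, the half-site bound by nuclear receptors such as PPAR, the fat cell regulator.
Ucp1, chr8:83290098-83290397, plus strand: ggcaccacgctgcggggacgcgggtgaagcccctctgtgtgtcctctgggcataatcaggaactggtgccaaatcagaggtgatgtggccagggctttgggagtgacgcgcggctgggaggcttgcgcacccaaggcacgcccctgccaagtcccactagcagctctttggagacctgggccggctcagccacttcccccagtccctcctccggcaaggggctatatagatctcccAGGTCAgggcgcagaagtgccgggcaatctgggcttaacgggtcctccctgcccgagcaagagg
Slc27a2, chr2:126552774-126553073, plus strand: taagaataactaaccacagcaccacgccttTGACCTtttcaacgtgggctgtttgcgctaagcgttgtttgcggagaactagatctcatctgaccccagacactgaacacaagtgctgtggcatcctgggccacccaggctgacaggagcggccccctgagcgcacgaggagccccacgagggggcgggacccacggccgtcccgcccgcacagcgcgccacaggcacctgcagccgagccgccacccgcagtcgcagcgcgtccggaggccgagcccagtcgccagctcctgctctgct
Cox8b, chr7:140900397-140900696, minus strand: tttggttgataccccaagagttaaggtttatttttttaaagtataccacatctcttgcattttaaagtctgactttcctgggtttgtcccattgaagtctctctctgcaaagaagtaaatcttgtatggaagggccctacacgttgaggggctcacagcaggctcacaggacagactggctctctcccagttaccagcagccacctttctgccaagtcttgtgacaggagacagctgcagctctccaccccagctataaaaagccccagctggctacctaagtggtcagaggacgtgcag
Otop1, chr5:38277154-38277453, plus strand: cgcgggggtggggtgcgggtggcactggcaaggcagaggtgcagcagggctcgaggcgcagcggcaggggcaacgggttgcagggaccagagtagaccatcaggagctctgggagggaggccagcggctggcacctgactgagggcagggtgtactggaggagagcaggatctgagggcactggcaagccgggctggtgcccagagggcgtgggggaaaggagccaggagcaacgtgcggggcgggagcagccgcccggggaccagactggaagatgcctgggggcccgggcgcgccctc
Ucp1 held the half-site on its own strand with the first base at -14, Slc27a2 held it on the other strand at -220, and the other two windows did not hold these letters. Of all 32851 promoter windows 16.3% held the half-site on either strand, against 24.1% of the 145 windows of genes called higher, for which 125 of 170 genes had an entry. A match in letters is a description of the window and not a site.

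Several known brown fat genes were not called. Dio2, the deiodinase that makes active thyroid hormone in brown fat, stood at 132, 94.4, 134, 49.97 and 50.1 CPM against 57.2, 53.0, 37.6, 53.1 and 37.1 CPM, with groups that overlapped and a slope of 0.20 ± 0.07 (adjusted p = 0.358). Prdm16, a transcriptional regulator of brown fat identity, stood at 127, 95.5, 167, 189 and 136 CPM against 161, 177, 158, 132 and 152 CPM, which overlapped throughout. Its slope was -0.05 ± 0.06 (adjusted p = 0.821), and the smallest values of all 15 libraries were in vehicle 4 and vehicle 5, the highest for Ucp1. Ppargc1a, the coactivator of mitochondrial genes, was apart between the groups, 10.0 ± 3.20 CPM against 5.27 ± 0.839 CPM (SD, n = 5 each), but its slope of 0.23 ± 0.06 did not pass (adjusted p = 0.129). Zic1 and Lhx8, markers of classical brown fat, were too low to be tested, at 0.0775 against 0.116 CPM and 0.355 against 0.168 CPM. Both were under 1 CPM in every library.

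Among the other uncoupling proteins, Ucp3, the relative found in muscle and brown fat, was apart at 34.9, 26.6, 15.3, 16.7 and 7.79 CPM against 5.20, 3.04, 5.65, 2.23 and 1.61 CPM. Its slope of 0.46 ± 0.14 did not pass the test (adjusted p = 0.221), and celecoxib 1, of middle Ucp1, had the lowest Ucp3 of all at 0.485 CPM. Ucp2, the broadly expressed relative, overlapped between the groups, with a slope of 0.16 ± 0.09 (adjusted p = 0.575).

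**Figure D2:**
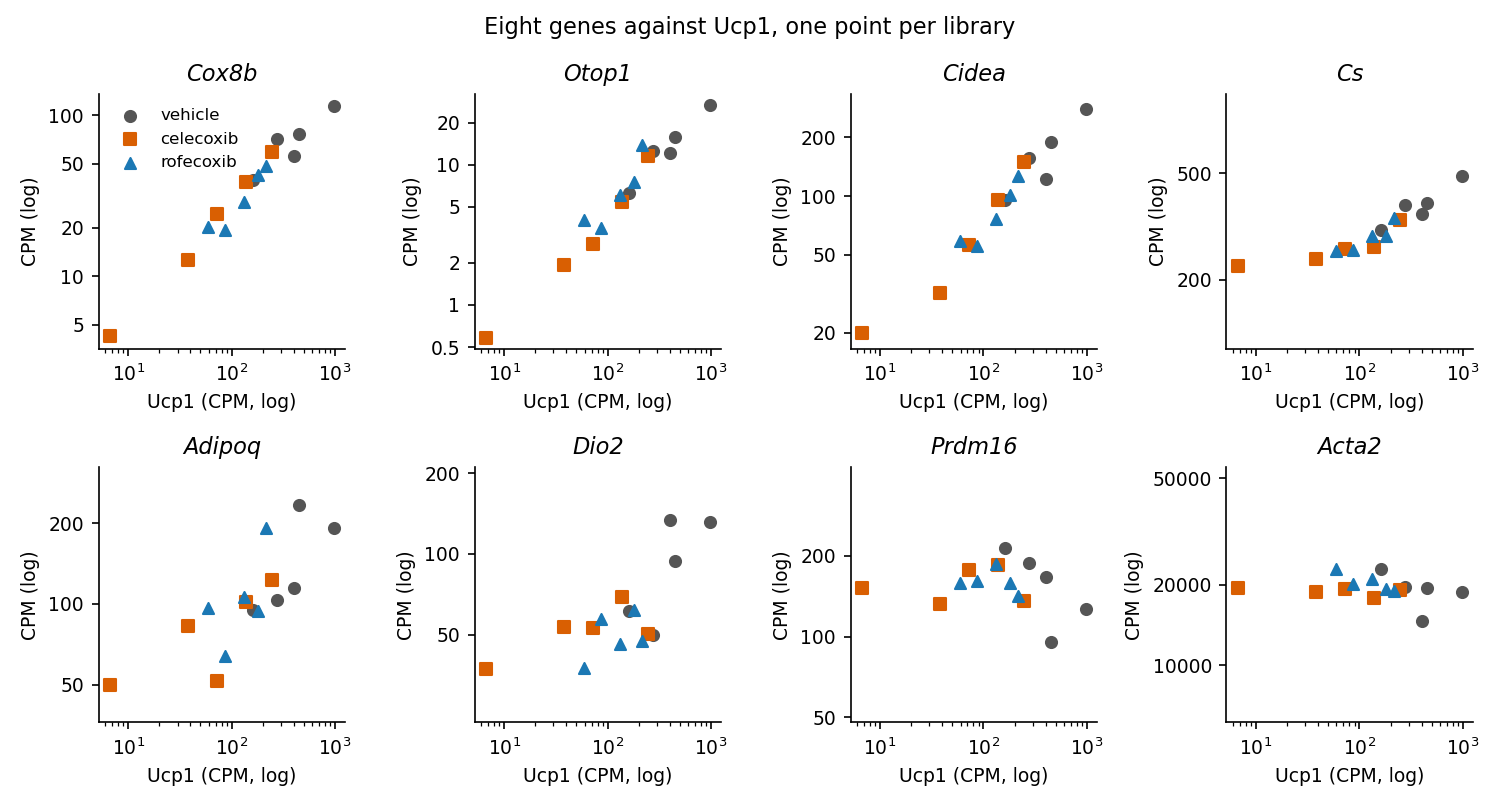
Levels of 8 genes (CPM, log axes) against Ucp1 in the 15 libraries, each point 1 mouse with symbols by treatment. Cox8b, Otop1 and Cidea are lowest in celecoxib 2 and highest in vehicle 5 with some reversals between, the citrate synthase gene Cs rises less steeply, and Prdm16 and Acta2 show no rise; the panels have y ranges of different width.

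Some genes of fat cells in general were also called. All 29 members of the list were tested, and 7 were called higher (1.12% over all genes) and 0 lower. All 29 slopes were positive (53.4% over all genes), with a median of 0.31. The count fell to 4 without celecoxib 4, vehicle 2 or vehicle 5, and 0 were called without both end libraries. The called genes were Fabp4, Pparg, Pnpla2, Lpl, Cd36, Adig and Gpd1.

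Fabp4, the fatty acid binding protein of fat cells, stood at 1364, 1415, 982, 792 and 879.9 CPM against 559.9, 441, 545, 511 and 285 CPM. Its slope was 0.33 ± 0.05 (adjusted p = 0.00364), less than that of Cidea or Cox8b, and all high libraries lay above all low ones. Adipoq, which encodes adiponectin, stood at 192, 235, 115, 103 and 122 CPM against 63.9, 51.7, 96.6, 82.9 and 49.9 CPM. The Adipoq groups did not overlap, but vehicle 4 and not vehicle 5 was highest, rofecoxib 1 of middle Ucp1 reached 192 CPM, and the slope of 0.29 ± 0.09 did not pass (adjusted p = 0.179). Plin1, the droplet coat protein of fat cells, likewise did not pass at 0.35 ± 0.12 (adjusted p = 0.253).

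No gene selective for white fat was called. Of 11 tested, 0 were called, 6 slopes were positive and the median was 0.06, which turned to -0.07 without celecoxib 4 and was 0.12 without celecoxib 2 and 0.003 without rofecoxib 2. Lep, the leptin gene, stood at 5.36, 6.92, 0.969, 4.59 and 11.2 CPM against 1.75, 1.68, 3.71, 1.78 and 2.20 CPM with a slope of 0.44 ± 0.20 (adjusted p = 0.497). Retn, the resistin gene, had a slope of 0.19 ± 0.11 (adjusted p = 0.617). For both genes the groups overlapped.

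Enzymes of fatty acid oxidation were called in large part. Of 30 genes, 18 were called higher (1.12% over all genes) and 0 lower. The median slope was 0.20 and the median ratio of high to low means 1.82 (1.01 over all genes). Between 12 and 20 were called when 1 library was left out, the fewest without celecoxib 4, and 15 without both end libraries. With Adipoq as a further term 1 was called, and with the replicate number as a block 1 was called. The calls covered entry of fatty acids (Cpt1b, Cpt2, Slc25a20), the beta-oxidation cycle (Acadl, Acadm, Acadvl, Hadha, Hadhb, Acaa2) and electron transfer to the chain (Etfa, Etfb, Etfdh). Hadhb, the beta subunit of the trifunctional protein, stood at 330.5, 242, 214, 213 and 203 CPM against 108, 112, 107, 93.3 and 77.1 CPM, with a slope of 0.30 ± 0.04 (adjusted p = 0.00149). Acadl, the long-chain acyl-CoA dehydrogenase, stood at 359.5, 275, 238, 230.1 and 221 CPM against 125, 137, 131, 119 and 92.5 CPM, with a slope of 0.28 ± 0.04 (adjusted p = 0.00152). For both genes every high library lay above every low one, and celecoxib 2 was lowest.

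Fewer genes of lipid uptake and storage were called. Of 13 uptake genes 5 were called higher (2 without celecoxib 4, 3 without vehicle 2 or vehicle 5), among them Lpl, the lipase that frees fatty acids from circulating triglyceride, at 0.38 ± 0.07 (adjusted p = 0.0262). That call was lost without celecoxib 4, vehicle 2 or vehicle 5. In triglyceride assembly 3 of 13 tested genes were called, Gpd1, Gpd2 and Agpat3 (1 without celecoxib 4, 5 without celecoxib 1). Gpd1, which makes the glycerol backbone, stood at 950.5, 568.2, 199, 351 and 323 CPM against 104, 93.7, 126, 73.7 and 37.8 CPM, with a slope of 0.61 ± 0.09 (adjusted p = 0.0045). It was spread widely, with vehicle 5 highest and vehicle 3 nearest the low libraries.

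Of 15 droplet and lipolysis genes tested, Plin5, Cidea and Pnpla2 were called. The Pnpla2 call was lost without celecoxib 2, vehicle 2 or vehicle 5. The lists share members, such as Cidea with the thermogenic list, so their calls overlap. In all, 41 different called genes were in a fat or lipid list. Plin5, the droplet coat protein of oxidative tissues, ranged from 13.1 to 33.0 CPM in the high libraries and from 1.26 to 6.43 CPM in the low, with a slope of 0.73 ± 0.06 (adjusted p = 4.72e-05). In fatty acid synthesis 3 of 17 tested genes were called: Mlxipl, the carbohydrate-responsive regulator, Elovl6 and Acacb. The Elovl6 call was lost without celecoxib 4, and that of Acacb without celecoxib 4, celecoxib 5, rofecoxib 1, vehicle 2 or vehicle 5.

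Most citrate cycle genes and a minority of respiratory chain genes were called higher. Of 22 citrate cycle genes 15 were called higher (1.12% over all genes) and all 22 slopes were positive (53.4% over all genes). The median slope was 0.15 and the median ratio 1.56, and 9 were called without celecoxib 4 and 10 without vehicle 2. Cs, citrate synthase, stood at 487, 387, 352, 382 and 334 CPM against 257, 261, 256, 239 and 224 CPM. All the high libraries exceeded all the low ones for Cs, but the slope of 0.13 ± 0.03 (adjusted p = 0.0247) lost its call without celecoxib 4, vehicle 2 or vehicle 5.

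Respiratory complex I had 13 of 37 genes called higher (1.12% over all genes). All 37 slopes were positive (53.4% over all genes), with a median of 0.08 (0.13 without celecoxib 2). The call count was fragile: 4 were called without celecoxib 4, rofecoxib 1 or vehicle 2, 5 without vehicle 5 and 6 without celecoxib 1. Among the called genes was Ndufa10, an accessory subunit, at 0.17 ± 0.03 (adjusted p = 0.00567). Complexes II to V had 19 of 41 tested genes called higher, 39 positive slopes and a median of 0.12, with 6 called without celecoxib 4 and 10 without vehicle 2 or vehicle 5. Beyond the brown fat isoforms Cox8b and Cox7a1, the steepest was Cox5a at 0.22 ± 0.03 (adjusted p = 0.00324), and Cycs, cytochrome c, was at 0.22 ± 0.03 (adjusted p = 0.00304). The slopes of Cox8b and Cox7a1 exceeded that of every other called subunit of the list; the difference between subunits was not tested.

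The rest of the mitochondrial machinery gave few calls. Of 22 chaperone and import genes 1 was called, Grpel1 at 0.09 ± 0.02 (adjusted p = 0.0497), a call that was lost in 13 of 15 fits that left out 1 library, although all 22 slopes were positive with a median of 0.06. Of 49 mitochondrial ribosomal protein genes 0 were called, with 43 positive slopes and a median of 0.03 (0.05 without celecoxib 2, 0.02 without vehicle 5). Among these fat, lipid and mitochondrial lists, median slopes were highest for general adipocyte (0.31), triglyceride assembly (0.27), thermogenic (0.24), fatty acid uptake (0.21) and oxidation (0.20). Then came droplet and lipolysis (0.17), citrate cycle (0.15), complexes II to V (0.12), fatty acid synthesis (0.10) and complex I (0.08). Chaperone and import (0.06), white-selective (0.06) and ribosome (0.03) were lowest. The differences between lists were not tested.

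**Figure D3:**
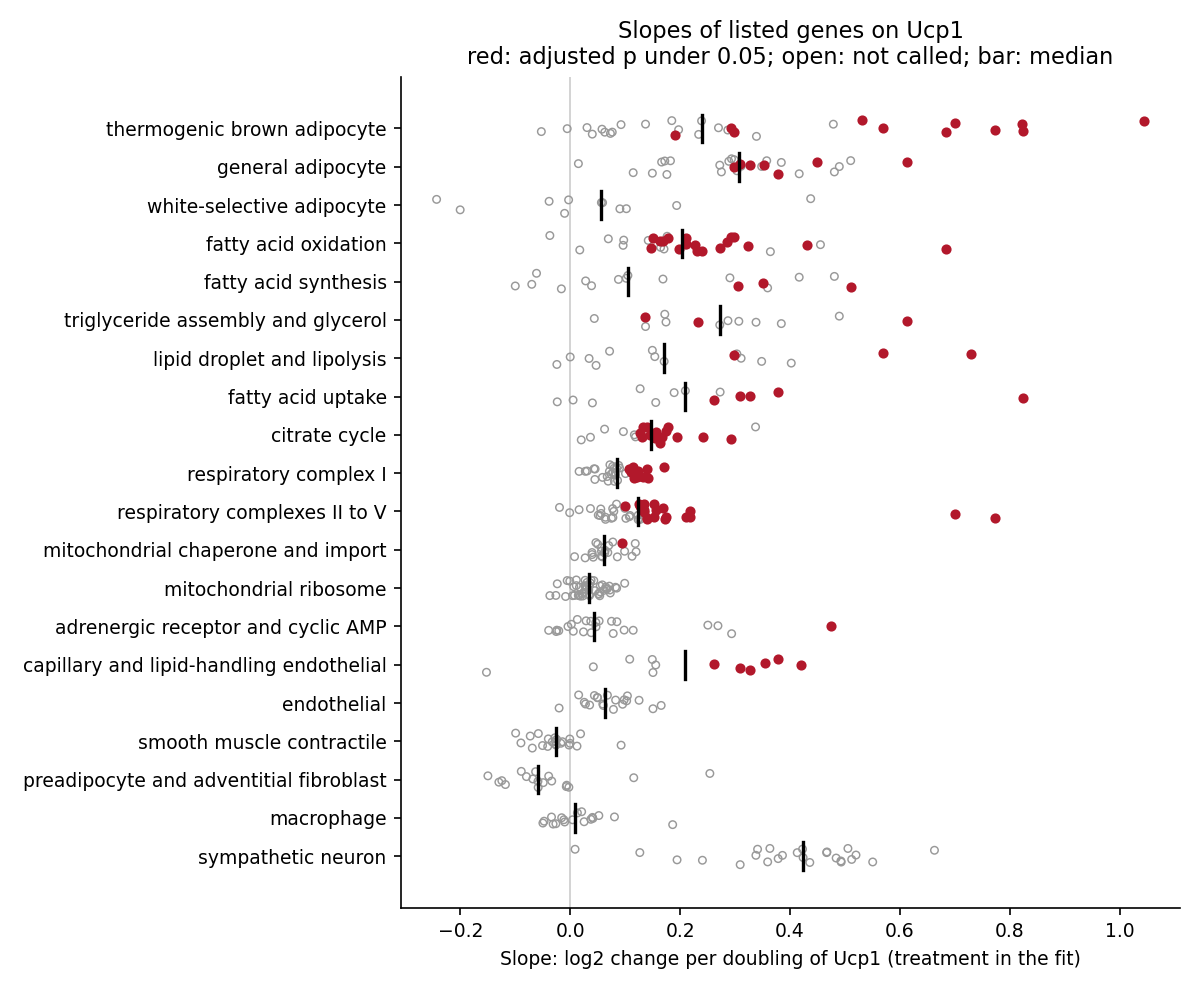
Slope on Ucp1 (log2 change per doubling, x axis) of each tested member of 20 gene lists (rows); filled red points are called, open points are not and black bars are list medians. The medians are 0.31 for general adipocyte, 0.24 for thermogenic, 0.03 for mitochondrial ribosome and -0.03 for smooth muscle genes; the sympathetic neuron median is 0.42 with 0 called, and it is -0.68 without celecoxib 4.

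Adipoq, which all fat cells express, was added to the fit, so that each slope was taken at equal Adipoq. Then 16 genes were called, all higher with Ucp1 (0.106%) and all among the 170: 9530008L14Rik, Adig, Apoc1, Cidea, Cox7a1, Cox8b, Cpt1b, Elovl3, Fabp4, Gm10032, Gys2, Kng2, Otop1, Plin5, Slc27a2 and Slc36a2. Of the thermogenic list 8 remained called and of the general adipocyte list 2, Adig and Fabp4. The median slope of the thermogenic list went from 0.24 to 0.14, that of the general adipocyte list from 0.31 to 0.11, and that of the citrate cycle list from 0.15 to 0.09 with 0 called. Cox8b was almost unmoved, at 0.69 against 0.70, whereas Lipe, the hormone-sensitive lipase, went from 0.31 to 0.08 without being called in either fit. Adipoq is itself in the general adipocyte list, and its own slope of -0.0017 at equal Adipoq was fixed by that term. It lay below that list's median in both fits, at 0.29 against 0.31 without the term, so its fixed value did not by itself lower the median. How far the fall of the other members is built in was not tested. Adipoq and Ucp1 were measured in the same libraries, so the 2 terms share their variation.

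**Figure D4:**
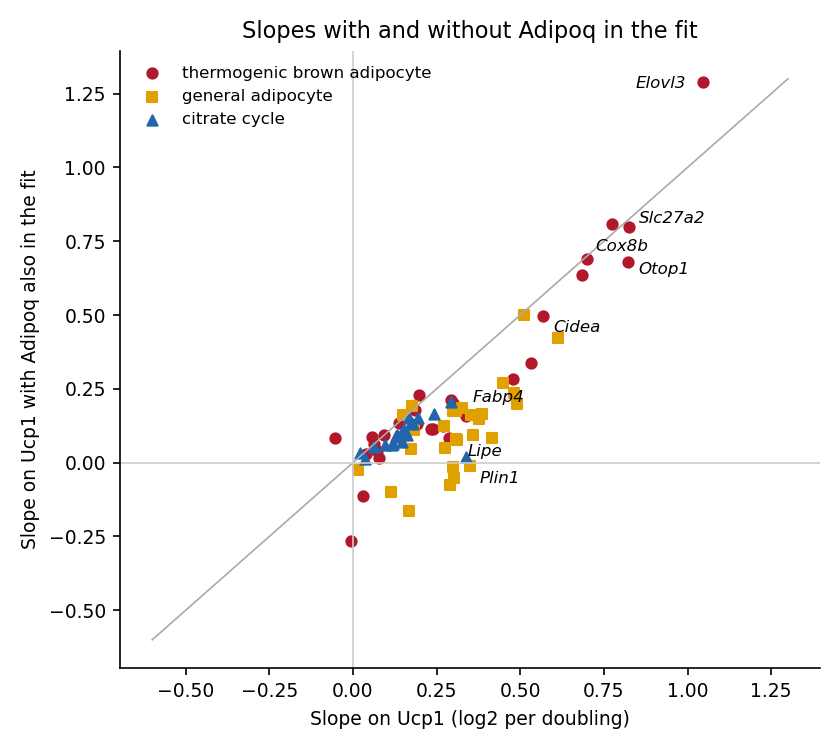
Slope on Ucp1 with Adipoq also in the fit (y axis) against the slope without it (x axis), both as log2 change per doubling of Ucp1, for tested genes of 3 lists; the diagonal marks equal slopes. Slc27a2, Cox8b and Cidea stay near the diagonal. Elovl3 lies above it (1.29 with Adipoq, 1.04 without) and Otop1 below it (0.68 with Adipoq, 0.82 without). Most general adipocyte genes also lie below it.

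The signalling that activates brown fat gave 1 call. Of 24 adrenergic receptor and cyclic AMP genes 1 was called, Prkar2b, a regulatory subunit of protein kinase A, at 0.48 ± 0.08 (adjusted p = 0.0136), and 0 were called without celecoxib 4. It stood at 139, 134, 67.6, 88.2 and 92.3 CPM against 32.9, 28.8, 43.2, 32.5 and 17.3 CPM, with no overlap. Adrb3, the beta3-adrenergic receptor, stood at 14.47, 32.7, 32.6, 15.6 and 21.7 CPM against 12.9, 7.79, 19.7, 12.3 and 10.2 CPM, which overlapped, with a slope of 0.11 ± 0.11 (adjusted p = 0.784). Adrb1, the beta1 receptor, was apart at 2.90 ± 0.874 CPM against 0.924 ± 0.36 CPM (SD, n = 5 each) but did not pass (adjusted p = 0.215). Of 19 secreted factors of fat tested, Lpl alone was called. Nrg4, a factor released by brown fat, had a slope of 0.29 ± 0.08 (adjusted p = 0.132). Angptl8, listed under an older name, had a slope of 0.59 ± 0.18 (adjusted p = 0.199).

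Part of a list of capillary and lipid-handling endothelial genes was called, including genes that fat cells share. Of 12 genes of the capillary list, 6 were called higher, Gpihbp1, Cd36, Fabp4, Car4, Lpl and 1190002H23Rik (Rgcc), with a median slope of 0.21, and 2 were called without celecoxib 4, 4 without celecoxib 2, vehicle 2 or vehicle 5, 0 without both end libraries and 1 at equal Adipoq. Fat cells express Cd36, Fabp4 and Lpl as well. Gpihbp1 anchors lipoprotein lipase on capillary endothelium, and Car4 is a carbonic anhydrase of capillaries, with 11.3 ± 1.10 CPM against 5.35 ± 1.77 CPM (SD, n = 5 each). The general endothelial list had 0 of 20 called, with 19 positive slopes and a median of 0.06 (0.03 without rofecoxib 2), and its summed level ran from 1403 to 1760 CPM in the high libraries and from 940.4 to 1735 CPM in the low. Pecam1, the endothelial adhesion molecule, had a slope of 0.10 ± 0.04 (adjusted p = 0.385).

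The wall of the vessel gave no called gene. Of 22 smooth muscle contractile genes 0 were called, 3 slopes were positive and the median was -0.03 (-0.06 without celecoxib 2). For 2 of the 22 every high library lay below every low one, against 0.136% of genes with a mean of at least 1 CPM. Their summed level was 66547 ± 3447 CPM in the high libraries and 73471 ± 3530 CPM in the low (SD, n = 5 each), with ranges from 61786 to 69724 and from 69179 to 78802 that overlapped. Acta2, smooth muscle actin, stood at 18694, 19349, 14679, 19535 and 19136 CPM against 20128, 19193, 22896, 18790.3 and 19506 CPM, with a slope of -0.04 ± 0.03 (adjusted p = 0.742). Myh11, smooth muscle myosin, had a slope of -0.02 ± 0.02 (adjusted p = 0.842). CPM are shares of a library's total. The fibroblast list had 0 of 18 called with a median of -0.06 (-0.04 without celecoxib 2 or vehicle 5), and the elastic fibre and matrix list had 0 of 16 with a median of -0.04 (-0.07 without celecoxib 1, -0.02 without celecoxib 4).

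Sympathetic nerve transcripts varied widely among libraries of both groups. Of 25 sympathetic neuron genes 0 were called. All 25 slopes were positive, with a median of 0.42, but that median was -0.68 without celecoxib 4 and 1.66 without celecoxib 2. The summed level ran from 76.0 to 1242 CPM in the high libraries and from 84.5 to 850 CPM in the low. Th, the rate-limiting enzyme of noradrenaline synthesis, stood at 2.52, 32.9, 0.969, 0 and 88.1 CPM against 53.3, 0.129, 0.323, 0.646 and 9.43 CPM, with a slope of 0.52 ± 0.55 (adjusted p = 0.798). High and low libraries each held both rich and nearly empty ones, and with the mean of the nerve list as a further term the fit called 169 genes. Of 21 Schwann cell and nerve sheath genes 0 were called.

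Other cell types and programmes gave no called gene apart from Tbxa2r and Ldhb. The macrophage list had 0 of 18 called with summed levels of 526.3 to 707 CPM against 539.5 to 675 CPM. The lists of lymphocytes (4 of 20 tested), mast cells (7), skeletal muscle (13), cardiac muscle (9), erythroid and platelet genes (9) and mesothelium (4) had 0 called. So had those of creatine and calcium cycling (11), glucocorticoid response (22), circadian clock (20), heat shock (13), immediate early genes (15) and proliferation (12). For the glucocorticoid list the median slope was 0.18 (0.10 without celecoxib 1), while the median ratio of high to low means was 0.98. Of 21 glycolysis genes Ldhb was called higher, a call that was lost in 12 of 15 fits that left out 1 library. Of 19 prostanoid genes tested, Tbxa2r, the thromboxane receptor, was called lower. Ptgs2, which encodes cyclooxygenase-2, the target of both drugs, stood at 22.9, 27.3, 28.8, 18.1 and 43.8 CPM against 40.4, 47.1, 46.3, 90.5 and 30.9 CPM and did not pass, with a slope of -0.04 ± 0.10 (adjusted p = 0.906).

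Among the 172 called genes, 84 were in a fat, lipid, citrate cycle or mitochondrial list, 89 were in any list and 83 were in none. Named genes with steep slopes and no list included Kng2, Cpn2, Gys2 and Aspg. Kng2, a kininogen, stood at 5.23, 4.72, 8.27, 5.24 and 3.81 CPM against 1.196, 1.65, 1.13, 0.582 and 0.0969 CPM (slope 0.83 ± 0.12, adjusted p = 0.00364). Cpn2, a subunit of the kinin-cleaving carboxypeptidase N, had a slope of 0.82 ± 0.12 (adjusted p = 0.00339). Kininogen is the precursor of bradykinin, which dilates vessels. Gys2, the liver isoform of glycogen synthase, had a slope of 0.72 ± 0.06 (adjusted p = 3.49e-05). Aspg, an asparaginase, had a slope of 0.81 ± 0.15 (adjusted p = 0.0156), which was lost without celecoxib 2.

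Cell surface genes Mpzl2 at 0.62 (adjusted p = 0.0031) and Cxadr, the coxsackievirus and adenovirus receptor, at 0.59 (adjusted p = 0.00466) were also called. So was Car2, a cytosolic carbonic anhydrase, at 0.58 (adjusted p = 0.0159), but its call was lost without celecoxib 2, vehicle 2 or vehicle 5. Chchd10, a mitochondrial protein, had 0.47 ± 0.06 (adjusted p = 0.00124). Apoc1, an apolipoprotein, had 0.48 ± 0.05 (adjusted p = 0.000458).

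The 2 genes called lower changed little. Slc6a7, the brain proline transporter, stood at 23.8, 24.6, 26.4, 35.8 and 21.98 CPM against 32.4, 29.7, 34.3, 26.1 and 36.5 CPM, with overlapping groups and a slope of -0.16 ± 0.03 (adjusted p = 0.0212) that lost its call without celecoxib 2, celecoxib 4 or vehicle 5. Tbxa2r stood at 36.9, 34.4, 34.6, 42.0 and 32.6 CPM against 44.2, 34.2, 42.1, 38.8 and 42.6 CPM, again overlapping, with a slope of -0.10 ± 0.02 (adjusted p = 0.0464). Its call was lost in 12 of 15 fits that left out 1 library.

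Since most vehicle libraries were high and most celecoxib libraries low, the drug contrasts were refitted at equal Ucp1. By edgeR, celecoxib against vehicle gave 0 called genes with the Ucp1 term (1370 at an unadjusted p under 0.05) and 0 without it (1895). DESeq2 called 38 at equal Ucp1. By edgeR, rofecoxib against vehicle gave 0 with the term (292 at an unadjusted p under 0.05) and 0 without it (783), and DESeq2 called 0 at equal Ucp1. The median log2 fold change of the thermogenic list between celecoxib and vehicle was -0.89 without the Ucp1 term and -0.05 with it, and that of the citrate cycle list -0.47 and -0.05. For rofecoxib the thermogenic median was -0.59 and -0.05, and the general adipocyte median -0.52 and -0.02. More remained for rofecoxib in the citrate cycle list, -0.39 and -0.14, and in fatty acid oxidation, -0.48 and -0.14. Ucp1 was measured after dosing and most genes of these lists rose with it, so the Ucp1 term takes up part of their differences between treatments. Drug and Ucp1 level therefore cannot be told apart by these falls. Whether the drugs set the Ucp1 level was not tested.

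The treatment by Ucp1 interaction, added after the data were seen, called 0 genes in edgeR, where 414 genes fell under 0.05 before adjustment and the smallest adjusted p was 1.0.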

How the data were processed

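Thoracic aorta RNA from 15 mice (3 treatments, 5 mice each) was sequenced as poly(A) libraries. The deposited table holds whole-number counts for 37681 genes, 1 column per mouse. Per the submitters' processing notes, CASAVA 1.8.2, STAR 2.5.2a and mm9 were used; no label or header names the counter, the use of strand or the gene annotation, so overlapping and antisense genes cannot be told apart. Column totals agree within 0.0971%, and all 37 mitochondrial genes are at 0, so the authors may have filtered or scaled the counts before deposit.

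From these counts, CPM were computed on column totals and the libraries ranked by Ucp1. The split was made from measured values and is described without a test. For the test, edgeR 4.0.16 (R 4.3.3; TMM, filterByExpr, robust quasi-likelihood) was fitted to all 15 libraries with treatment and centred log2 Ucp1 CPM as terms (11 residual degrees of freedom). Ucp1 was left out, 15133 genes were adjusted together by the Benjamini-Hochberg method, and the threshold was 0.05. DESeq2 1.42.0, other scalings, filters, terms and left-out libraries were alternatives. The script was tested on simulated data. Named genes were, by rule, those of largest called slope, the 4 of smallest p in each list described and a set list of markers; Adrb1, Lpl, Chchd10, Apoc1 and a few others were added after their values were seen, and some genes that the rule names are not reported here. The group members and gene lists were chosen with earlier results of these data known. Promoters came from a RefSeq table and coordinates from the deposited table.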

Additional observations from a re-analysis of the deposited data

Results flagged for a closer look

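Of 46 groups of 5 libraries checked, 8 had 1 library far from the others by Dixon's criterion, which chance alone passes in about 1 of 20 groups. In the high group the library was vehicle 5 for Ucp1 (980.1 CPM), Elovl3 (19.4 CPM), Cox7a1 (51.9 CPM), Otop1 (26.8 CPM) and Slc27a2 (30.2 CPM). These 5 flags share 1 library and genes that vary together, so they are not separate events. The groups were cut from the order of Ucp1, so the rate of about 1 of 20 does not apply to Ucp1 or to genes that vary with it. In the same group vehicle 3 was low for Acta2 (14679 CPM). In the low group rofecoxib 2 was high for Lep (3.71 CPM) and rofecoxib 5 for Th (53.3 CPM).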

How the results depend on the processing

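The 172 genes called for the Ucp1 slope became 16 with Adipoq as a further term, 393 by DESeq2 (171 shared), 546 without the treatment term, 279 with the rank of Ucp1, and 67 without vehicle 5 and celecoxib 2, a setting chosen after seeing the data. Leaving out 1 library gave 82 to 209. With the replicate number as a block 14 genes were called, all among the 172. Of the thermogenic list 7 were called in that fit, of complexes II to V 2 and of fatty acid oxidation 1. Of the general adipocyte, citrate cycle and complex I lists 0 were called. The labels do not say whether the numbers pair the mice. Of 15 same-number pairs 6 correlated over 0.1, and 4 of 15 libraries correlated best with their own number. So few libraries cannot decide whether the numbers mark a pairing. The 124 genes 2-fold apart became 56 for 7 against 7 libraries, 255 at 1.5-fold and 23 at 4-fold, and 110 to 162 with 1 library left out. DESeq2 called 38 genes for celecoxib at equal Ucp1. Slopes of uncalled genes changed sign as follows, and the cause was not tested. With Adipoq in the fit they were -0.0672 for Lep, -0.148 for Retn, 0.0826 for Prdm16, -0.0121 for Plin1, -0.101 for Adrb3, 0.0137 for Myh11 and -0.00073 for Th. Under the replicate block they were 0.00017 for Prdm16, 0.0301 for Acta2, 0.0276 for Myh11, -0.365 for Th and 0.0933 for Ptgs2. With the nerve term Th was -0.0658. With 1 library or both end libraries left out, slopes ran from -0.282 (without celecoxib 4) to 0.118 (without both ends) for Agt, -0.0312 (without celecoxib 4) to 0.274 (without both ends) for Adrb3, -1.03 (without celecoxib 4) to 2.504 (without both ends) for Th, and -0.319 (without both ends) to 0.0121 (without celecoxib 5) for Ptgs2. With other scalings and no filter, the count stayed within 1.5 times.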

Other observations

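The called gene of smallest adjusted p, 7.93e-06, was Gm10032, an unnamed transcript at mm9 chromosome 14, 67403164 to 67412797, chosen here after its value was seen. It lies beside Adra1a, the alpha1A-adrenergic receptor gene (67253886 to 67390207), whose own slope was 0.25 ± 0.10 (SE, edgeR adjusted p = 0.407).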
